A study of Mus musculus with 6 samples.

Results

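Casd1, an enzyme that adds acetyl groups to sialic acid, was described together with 9 other genes of sialic acid metabolism in mouse spleen after exposure to perfluorooctane sulfonate (PFOS), a persistent fluorinated surfactant. The 10 members are Casd1, Siae, Cmas, Gne, Nans, Neu1, Neu3, St6gal1, St3gal1 and St8sia4, and all probe sets that the platform annotation assigns to one of them were taken, 21 of the 45101 probe sets in the table. As genes they are 10 of the 13101 tested. Casd1 was chosen by its measured rise in PFOS against control spleens, so its values are given as a description with no test. The other 9 members were named for their role in the pathway, with earlier results of these arrays known.

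The 6 spleens were those of Balb/c mice aged 6 to 8 weeks and labelled female. The control group held 3 mice without treatment, and the labels name no vehicle for them. The exposed group held 3 mice given 10 mg PFOS per kg body weight per day into the stomach for 3 weeks. Total RNA of each spleen went onto 1 Affymetrix Mouse430_2 array, and values are deposited on a log2 scale, so that a difference of 1 is 2-fold. The label of sex went against the data in all 6 arrays: the Y-linked genes Eif2s3y and Kdm5d lay at 9.62 to 9.91 and at 7.54 to 7.94, while Xist, the RNA that silences an X chromosome in female cells, lay at 5.62 to 5.86. Over the 13101 genes tested, Pearson's r was at least 0.9985 for arrays of the same group and at most 0.9698 for arrays of different groups. Replicates are labelled as biological, but the separate animals are not described further, so that p-values rest on the spread between arrays alone and part of it may be technical.

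Sialic acids are acidic sugars that end many glycans of the cell surface. The cell makes them from an activated amino sugar in steps run by Gne, Nans, the phosphatase Nanp and Cmas, the last of which joins the sugar to its nucleotide carrier. Sialyltransferases of the Golgi then attach the sugar to glycans, sialidases remove it, and acetyl groups can be added by Casd1 and taken off by Siae. On lymphocytes these sugars are ligands of Siglecs such as Cd22, and O-acetyl groups can block that binding.

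Over all genes tested, 8730 of 13101 differed between the groups by limma with a Benjamini-Hochberg adjusted p under 0.05, which is 66.6% of genes, 40.6% higher and 26.0% lower in PFOS. A call alone is therefore common in these arrays, and the size of each change was read against the distribution of all genes, whose median was 0.05 and whose 5th and 95th percentiles were -0.67 and 0.40 on the log2 scale. All 10 members passed the filter on low values, with both group means above its floor of 5.62. Of the 9 members other than Casd1, 4 were higher, 4 lower and 1 was not called. Their median change was 0.01, and their median size of change, whatever the sign, was 0.44 against 0.16 for all genes. The groups did not overlap for 8 of the 9, 4 in each direction, beside 71.1% of all genes (43.2% higher and 27.8% lower). Of their 19 probe sets, 7 were called higher and 6 lower, beside 49.5% of all probe sets (30.2% higher and 19.3% lower). Groups did not overlap for 15 of these 19 probe sets, 8 higher and 7 lower, beside 58.3% of all probe sets (35.4% higher and 22.9% lower). Not all of the 9 genes shared the direction of Casd1: St8sia4 and St6gal1 rose by 0.62 and 0.59, Neu1 and Siae by 0.29 and 0.17, and the others fell or were not called in the deposited values.

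**Figure D1:**
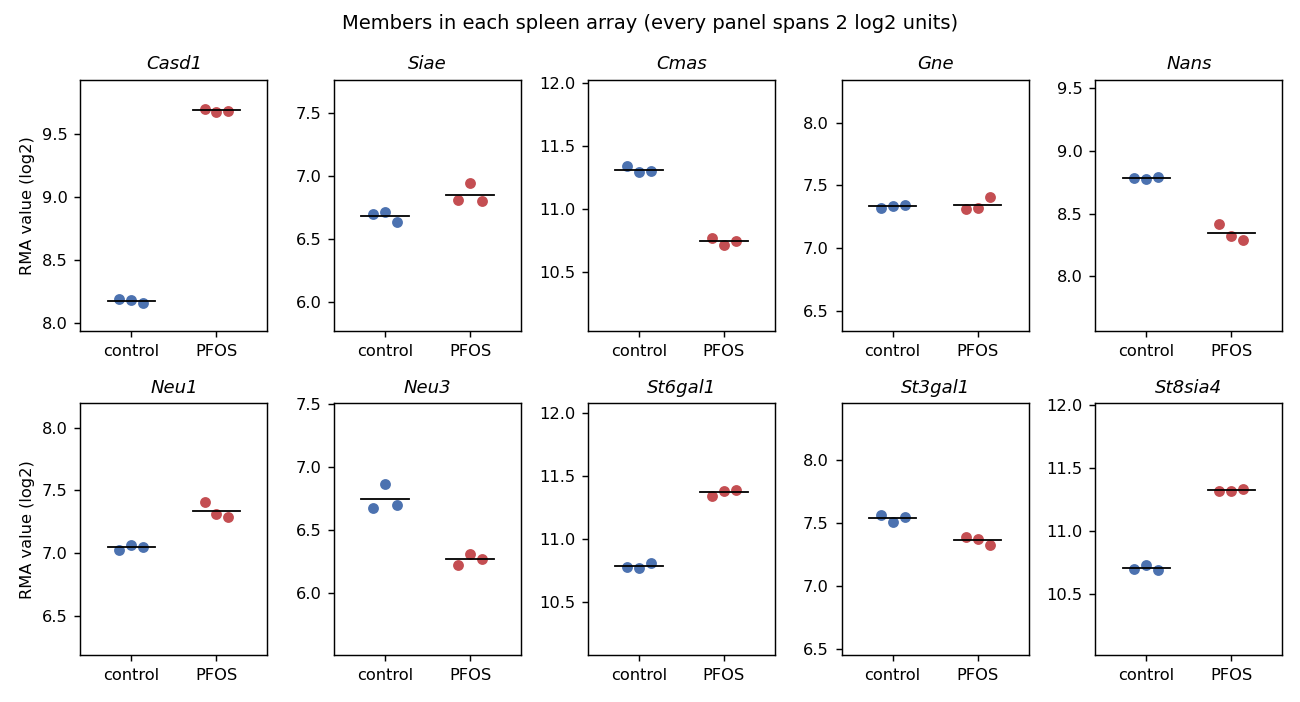
Log2 value of the 10 members in each array, with control in blue, PFOS in red and a black line at the mean of 3 arrays; every panel spans 2 log2 units on its own axis. Casd1 shows the widest step, from about 8.18 to 9.69, St8sia4 and St6gal1 step up by 0.62 and 0.59, Cmas, Nans and Neu3 step down, and the arrays of Gne overlap.

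Casd1 stood at 8.19, 8.18 and 8.16 in the 3 control arrays and at 9.71, 9.68 and 9.69 in the 3 PFOS arrays (probe set 1451980_at). The groups were far apart, with all 3 PFOS arrays high. The change was 1.51 ± 0.02 (limma SE, n = 3 arrays per group), or 2.86-fold, and only Igha among the 13101 genes had a larger rise. The SD within groups was 0.018 in control and 0.013 in PFOS. The other Casd1 probe set, 1427463_at, lay under the floor, at 5.36 ± 0.06 (SD, n = 3) in control and 5.52 ± 0.09 in PFOS, and its arrays overlapped. The rise of the transcript is thus carried by 1 probe set, and the other one, near the background of the array, had a change of 0.16 ± 0.06 (SE).

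The sequences before the gene start are shown for Casd1 and, since they had the largest rises and the largest fall among the other members, for St8sia4, St6gal1 and Cmas. They come from RefSeq on build GRCm38.p6, where 7 of the 10 members had at least 1 window of 250 bases and Siae, Nans and St3gal1 had none in the table. Of 2 windows of Casd1 and 3 of St6gal1, the most upstream is printed. Capitals mark matches, on either strand, to the GC box GGGCGG, the CCAAT box CCAAT, the TATA box TATAAA, the E-box CACGTG or the ETS core CGGAAG.
Casd1, chr6:4600661-4600910, plus strand: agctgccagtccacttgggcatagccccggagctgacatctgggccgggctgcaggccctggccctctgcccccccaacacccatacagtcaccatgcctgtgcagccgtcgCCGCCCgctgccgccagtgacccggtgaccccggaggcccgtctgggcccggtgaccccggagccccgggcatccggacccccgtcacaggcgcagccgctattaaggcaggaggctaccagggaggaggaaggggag
St8sia4, chr1:95667595-95667844, minus strand: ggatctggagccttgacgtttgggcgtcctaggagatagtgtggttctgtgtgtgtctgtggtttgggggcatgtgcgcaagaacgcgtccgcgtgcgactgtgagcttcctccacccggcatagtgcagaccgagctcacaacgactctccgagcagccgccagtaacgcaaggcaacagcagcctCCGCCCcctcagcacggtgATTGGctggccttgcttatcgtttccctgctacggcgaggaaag
St6gal1, chr16:23224490-23224739, plus strand: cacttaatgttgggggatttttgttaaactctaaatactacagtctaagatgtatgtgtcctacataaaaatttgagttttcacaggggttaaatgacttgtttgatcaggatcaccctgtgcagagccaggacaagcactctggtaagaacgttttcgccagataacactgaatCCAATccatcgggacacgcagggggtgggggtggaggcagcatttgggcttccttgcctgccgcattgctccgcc
Cmas, chr6:142756436-142756685, plus strand: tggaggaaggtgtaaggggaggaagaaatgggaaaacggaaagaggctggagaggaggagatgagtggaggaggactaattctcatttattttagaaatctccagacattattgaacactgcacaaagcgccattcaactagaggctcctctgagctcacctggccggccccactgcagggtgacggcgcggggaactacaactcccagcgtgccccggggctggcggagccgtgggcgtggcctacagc
The Casd1 window held 1 GC box, the St8sia4 window 1 GC box and 1 CCAAT box, the St6gal1 window 1 CCAAT box, and the Cmas window 0 matches to the 5 motifs. The GC box was found in 32.7% and the CCAAT box in 33.8% of the 32851 windows of the same length in the table. The GC content was 71.6% for Casd1, 60.4% for St8sia4, 47.2% for St6gal1 and 56.8% for Cmas, and the median of all windows was 52.4%. No match to the TATA box or the E-box was present in any of the 11 windows of the members, where 12.4% and 6.0% of all windows held one. A match describes the letters of the window and does not show that a factor binds there.

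Siae removes the O-acetyl groups that Casd1 adds. It stood at 6.69, 6.71 and 6.63 in control and at 6.81, 6.94 and 6.80 in PFOS. The groups did not overlap, and the change was 0.17 ± 0.04 (SE; limma adjusted p = 0.00998), about the size of the 75th percentile of all genes (0.19). Of its 4 probe sets, 2 were called higher, at 0.17 and 0.16, and 2 were not called, each at -0.11. With the mean over its probe sets the change was 0.07 and was not called, and with arrays scaled on ribosomal protein genes it was 0.03 and was not called. The gene-level call stayed with each array left out in turn. In the fit over all probe sets, 1416539_at lost its call without control replicate 3 (0.15). There 1460387_a_at lost its call without control replicate 1 (0.11) and without PFOS replicate 2 (0.15) or 3 (0.15). Slc33a1, which carries acetyl-CoA into the secretory pathway, was the only other gene listed for O-acetylation. It went from 6.98 ± 0.11 (SD, n = 3) in control to 7.48 ± 0.11 in PFOS, a rise of 0.50 ± 0.07 (SE; limma adjusted p = 0.000501), with the largest SE of the genes named from the list. In the deposited values both genes that act with or against Casd1 thus rose, by less than Casd1, which was chosen for its rise. The call of Siae depended on the probe set and on the scaling.

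In the deposited values Nans, Nanp and Cmas fell, and Gne was not called. Gne, the enzyme with 2 activities that starts the pathway, stood at 7.32, 7.34 and 7.34 in control and at 7.31, 7.32 and 7.41 in PFOS. PFOS replicates 1 and 2 lay within or below the control values, so the groups overlapped, with a change of 0.01 ± 0.03 (SE; limma adjusted p = 0.736). Its other probe set, 1455583_at, was called higher at 0.19 ± 0.04 (limma adjusted p = 0.00861 over all probe sets). The 2 probe sets of Gne therefore differ in their call, and with the mean over them Gne was called higher at 0.10, while scaling on ribosomal protein genes turned it to -0.12 and scaling on the labelling spikes gave 0.55, both with a call.

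Nans, which forms the sugar phosphate, stood at 8.78, 8.78 and 8.79 in control and at 8.41, 8.32 and 8.29 in PFOS. All PFOS arrays lay below all control arrays, and the fall was 1.36-fold (change -0.44 ± 0.03, limma adjusted p = 2.51e-05), and probe set 1417774_at had -0.19. Nanp, which removes the phosphate and is not one of the members, went from 10.19 ± 0.02 (SD, n = 3) to 9.50 ± 0.02, a 1.61-fold fall (change -0.69 ± 0.02, limma adjusted p = 3.53e-07). Cmas stood at 11.34, 11.29 and 11.30 in control and at 10.77, 10.71 and 10.74 in PFOS. The groups did not overlap, and the fall was 1.49-fold (change -0.57 ± 0.03, limma adjusted p = 1.85e-06). These 3 consecutive steps thus fell in the deposited values. With arrays scaled on the labelling spikes, Nanp stayed lower at -0.16, Cmas was at -0.04 and not called, and Nans turned to 0.092 and was not called.

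Of the 10 listed genes of synthesis and activation, all tested, 5 were called higher and 4 lower, with a median change of 0.04. Of all genes, 40.6% were called higher and 26.0% lower, with a median of 0.05. Cmah, which converts the common sialic acid of mammals into its glycolyl form, rose by 0.43 ± 0.03 (limma adjusted p = 1.79e-05). Of its other probe sets, 1440458_at was called lower at -0.27, and 1428043_a_at and 1440517_x_at were called higher at 0.26 and 0.34. With the mean over its probe sets Cmah was called higher at 0.13. Nagk, a kinase that salvages the amino sugar, rose by 0.19 ± 0.03. Nagk was at 0.053 and not called with scaling on ribosomal protein genes, and at 0.068 where its probe set with the suffix _a_at was left out. Uap1, which makes the nucleotide sugar that Gne uses, was lower at -0.25 ± 0.04 and turned to 0.29 with scaling on the labelling spikes.

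**Figure D2:**
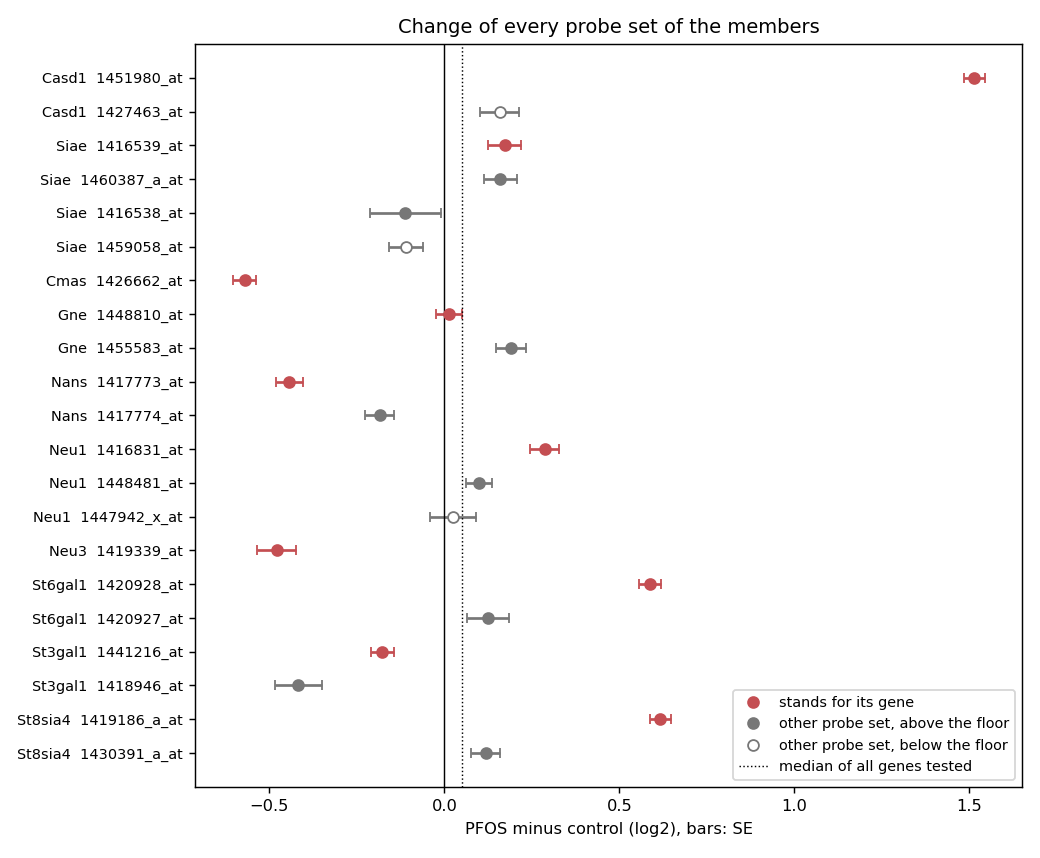
Change (PFOS minus control, log2) of all 21 probe sets of the members with limma's SE as bars; red points stand for their gene, grey points are other probe sets, open ones lie under the floor of 5.62, and the dotted line is the median of all genes (0.05). The Casd1 probe set 1451980_at stands alone at 1.51, and most other probe sets of a gene lie closer to 0 than the one that stands for it, with St3gal1 (-0.18 and -0.42) and Gne (0.01 and 0.19) as exceptions.

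Among the sialyltransferases, St8sia4 and St6gal1 rose and St3gal1 fell in the deposited values. St8sia4 builds polysialic acid chains on a few carrier proteins. It stood at 10.70, 10.73 and 10.69 in control and at 11.32, 11.32 and 11.33 in PFOS. All PFOS arrays lay above all control arrays, and the rise was 1.53-fold (change 0.62 ± 0.02, limma adjusted p = 5.40e-07), the 95th largest rise of the 13101 genes. Its other probe set, close to the floor at 5.72 in control and 5.83 in PFOS, had 0.12 (limma adjusted p = 0.0488 over all probe sets). That call was lost with arrays centred on their median, with quantile normalization and with another variance prior. It was also lost without control replicate 1 or 3 and without PFOS replicate 2 or 3. St6gal1 adds the sialic acid that Cd22 of B cells recognises. It stood at 10.78, 10.77 and 10.81 in control and at 11.35, 11.38 and 11.39 in PFOS. The groups did not overlap, and the rise was 1.50-fold (change 0.59 ± 0.02, limma adjusted p = 1.02e-06), the 129th largest. Its other probe set, close to the floor, was not called at 0.12 ± 0.06. Both genes were called higher under every scaling tried, at 0.45 to 1.15.

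St3gal1, which caps short O-linked glycans and is known from T cells, stood at 7.56, 7.51 and 7.55 in control and at 7.39, 7.37 and 7.33 in PFOS. The groups did not overlap. The change was -0.18 ± 0.03 (limma adjusted p = 0.000876), and probe set 1418946_at was called lower at -0.42 ± 0.07. With scaling on the labelling spikes St3gal1 turned to 0.36.

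Of the 6 ST3GAL genes tested, 5 were lower and St3gal3 was not called (-0.06), with a family median of -0.48 against 0.05 for all genes. St3gal5, which makes the simplest ganglioside, a sialic acid-bearing lipid of the cell surface, went from 9.65 ± 0.04 (SD, n = 3) to 8.60 ± 0.02. That is a 2.08-fold fall (change -1.06 ± 0.03, limma adjusted p = 1.12e-07), and probe set 1460241_a_at fell by 1.61. St3gal2 was lower at -0.98 ± 0.04 (limma adjusted p = 1.08e-06), St3gal6 at -0.67 ± 0.02 (limma adjusted p = 4.42e-07) and St3gal4 at -0.29 ± 0.04. With scaling on the labelling spikes, St3gal5, St3gal2 and St3gal6 stayed lower at -0.52, -0.44 and -0.14, while St3gal4 turned to 0.25. Among the 7 ST6 genes tested, 3 were called higher and 0 lower (median 0.10). Apart from St6gal1 these were St6galnac2 (0.12 ± 0.03, turned to -0.02 with scaling on ribosomal protein genes) and St6galnac4 (0.14 ± 0.05). St6galnac4 lost its call with scaling on ribosomal protein genes (0.0036), with the mean over its probe sets (0.081) and without PFOS replicate 1 (0.13), 2 (0.15) or 3 (0.14). In the fit over all probe sets St6galnac4 was not called (limma adjusted p = 0.0507). Among the 6 ST8SIA genes, 3 were called higher and 1 lower (median 0.26). St8sia6 rose by 0.76 ± 0.02 (limma adjusted p = 2.43e-07), and 2 further probe sets of it by 0.56 and 0.14. St8sia1, which adds a further sialic acid to gangliosides, rose by 0.55 ± 0.04 (limma adjusted p = 1.19e-05). St8sia5 was lower by a small amount, at -0.10 ± 0.03, and turned to 0.43 with scaling on the labelling spikes. Its call was lost without control replicate 1 (-0.099) or 2 (-0.080) and without PFOS replicate 2 (-0.090) or 3 (-0.089). That call was also lost with another variance prior (limma adjusted p = 0.083) and in the fit over all probe sets (limma adjusted p = 0.062). Over all 19 sialyltransferases tested, 6 were higher, 6 lower and 7 not called, where 40.6% of all genes were higher and 26.0% lower.

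**Figure D3:**
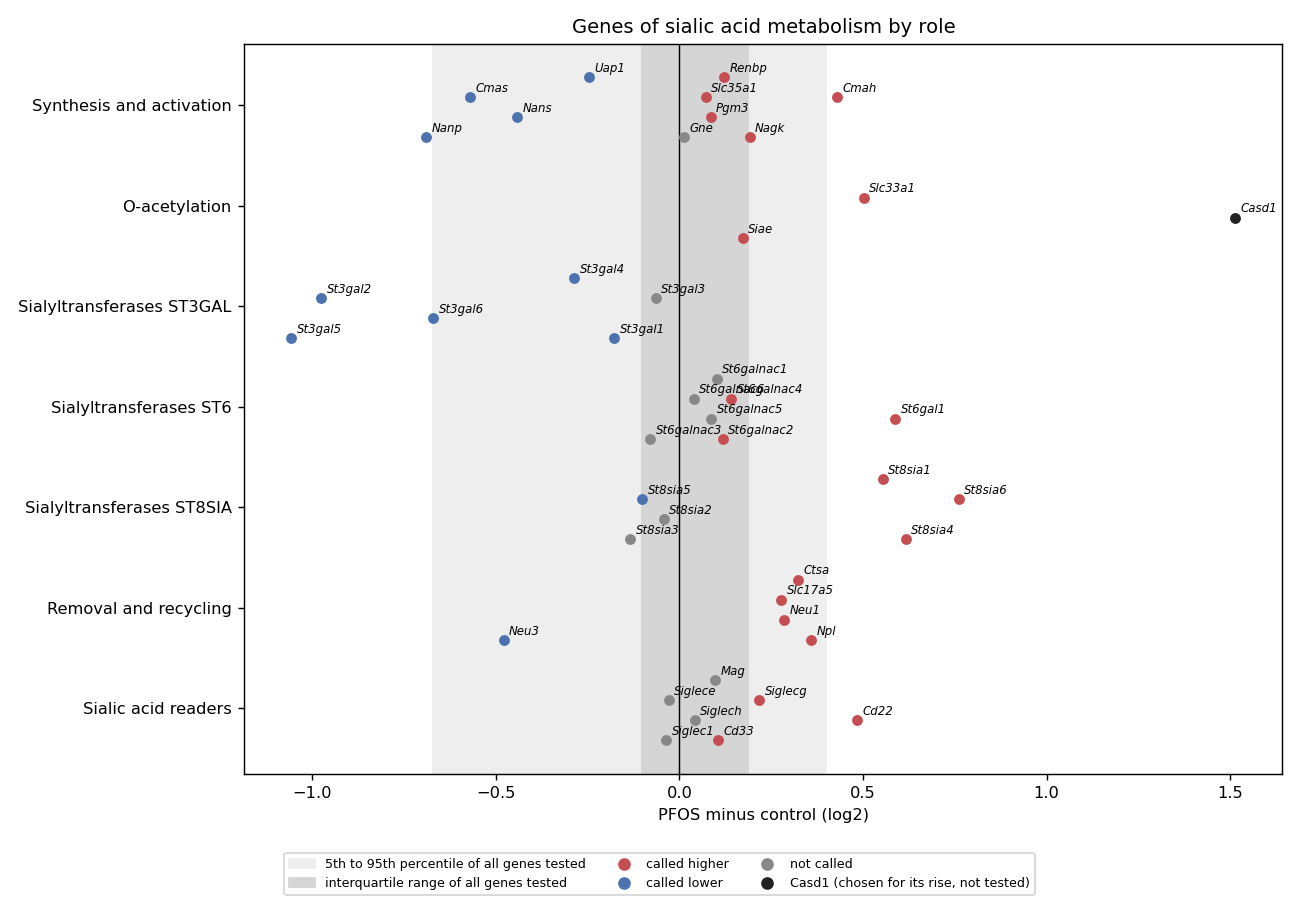
Change (PFOS minus control, log2) of each tested gene of sialic acid metabolism by role, red where called higher, blue where called lower and grey where not called, with Casd1 in black. Shading marks all genes tested, darker between the 25th and 75th percentiles (-0.10 and 0.19) and lighter between the 5th and 95th (-0.67 and 0.40); the 6 ST3GAL genes lie left of 0 in the deposited values, of which St3gal5, St3gal2 and St3gal6 stay there with scaling on the labelling spikes and the others turn, and Casd1, St8sia6, St8sia4, St6gal1, St8sia1, Slc33a1, Cd22 and Cmah lie right of the shading.

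The sialidases among the members went opposite ways. Neu1, the lysosomal sialidase, stood at 7.03, 7.06 and 7.05 in control and at 7.41, 7.31 and 7.29 in PFOS. The groups did not overlap, and the rise was 0.29 ± 0.04 (limma adjusted p = 0.000291). The 2 further probe sets of Neu1, at 0.10 and 0.02, were not called. Neu3, which acts on gangliosides of the plasma membrane, stood at 6.67, 6.87 and 6.70 in control and at 6.22, 6.31 and 6.27 in PFOS. All PFOS arrays lay below all control arrays, with control replicate 2 the highest, at 6.87. The fall was 1.39-fold (change -0.48 ± 0.05, limma adjusted p = 0.000157), and with scaling on the labelling spikes it turned to 0.056 and was not called. Ctsa, Slc17a5 and Npl, which are listed for the same role as Neu1, were also higher. Ctsa, the protein that protects Neu1 in the lysosome, rose by 0.32 ± 0.03 (limma adjusted p = 2.73e-05). Slc17a5, which exports free sialic acid from the lysosome, rose by 0.28 ± 0.03, and Npl, the lyase that breaks it down, by 0.36 ± 0.05. Neu1, Ctsa, Slc17a5 and Npl were called higher under every scaling tried. Of 7 genes listed for removal and recycling, 5 were tested, 4 of them called higher and 1 lower (median 0.29). Of all genes, 40.6% were called higher and 26.0% lower. Neu2 lay under the floor at 4.77, and no probe set was annotated to Neu4 alone, so Neu4 had no value.

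Over the 36 tested enzymes and transporters of the wider list without Casd1, out of 39 listed, 17 were called higher, 11 lower and 8 were not called. Both counts are to be read beside the 40.6% and 26.0% of all genes called in each direction. The median change was 0.08, and the median of all genes was 0.05. The changes ran from -1.06 (St3gal5) to 0.76 (St8sia6), and Casd1 was at 1.51. Since Casd1 was chosen for its rise, which only Igha among all genes exceeded, its place above this range follows from the choice. St6gal2, like Neu2, lay under the floor, at 3.26.

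Of the 7 Siglecs tested, which read sialic acids, 3 were higher and 0 lower, where 40.6% of all genes were higher. Cd22, an inhibitory receptor of B cells, rose by 0.48 ± 0.03 (limma adjusted p = 4.14e-06), and Siglecg, another inhibitory B cell receptor, by 0.22 ± 0.03. Cd33 had 0.11 ± 0.04 (limma adjusted p = 0.0459) with overlapping arrays, and turned to -0.032 with scaling on ribosomal protein genes. Its call was lost without control replicate 2 (0.10) or 3 (0.081) and without PFOS replicate 1 (0.097) or 2 (0.084). Without the filter on low values (limma adjusted p = 0.063), with another variance prior (0.055) and in the fit over all probe sets (0.078), Cd33 was not called either.

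Markers of several cell types moved in the same arrays, and their part in the changes above was not tested. In whole spleen, fewer cells of a type and less RNA per cell cannot be told apart. B cell markers were higher in 6 of 7 tested cases, with a median of 0.52 and a mean level of 9.78 to 9.80 in control and 10.25 to 10.26 in PFOS. T cell markers were higher in 7 of 7 (median 0.40, mean level 8.82 to 8.84 against 9.28 to 9.30). The changes ran from 0.04 (Pax5) to 0.62 (Cd79a) for B cell markers and from 0.14 (Cd3e) to 0.72 (Bcl11b) for T cell markers. St6gal1 rose by 0.59, Cd22 by 0.48, St8sia4 by 0.62 and Casd1 by 1.51. Whether shares of cells account for any of these rises was not tested. Plasma cell markers were higher in 5 of 6 (median 0.24) and red pulp macrophage markers in 3 of 6 (median 0.24). All these counts stand beside the 40.6% of all genes called higher, and 3 of 6 is near that share.

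Markers of dividing cells were lower in 6 of 6 cases (median -1.52, mean level 11.52 to 11.53 against 9.98 in all 3 PFOS arrays) and those of red cell precursors in 7 of 7 (median -1.46, 11.12 to 11.14 against 9.69 to 9.71). Hepatocyte markers were called lower in 8 of 8, with a mean level of 8.79 in control and 5.17 to 5.27 in PFOS. The PFOS means of 5 of these 8 lay under the floor. These 5 passed the filter through the control arrays, so no size is given for the fall of a single marker. The mean PFOS level above is likewise limited by the background of the array. Liver is known for strong expression of St6gal1 and Gne, of which St6gal1 was higher (0.59) and Gne was not called (0.01). Any part of liver RNA in their values was not tested. Neutrophil markers were lower in 6 of 7 (median -0.74) and pancreas acinar markers in 4 of 4 (median -0.62). These counts of lower markers stand beside the 26.0% of all genes called lower. Of 4 stroma markers, the collagen chains Col1a1 (-1.06 ± 0.09) and Col3a1 (-1.01 ± 0.03) were lower and Pecam1 (0.46 ± 0.02) was higher. The gene-level falls of Cmas, Nans, Neu3, Nanp and the ST3GAL genes were at most 1.06 in size. That was St3gal5, whose other probe set 1460241_a_at was at -1.61. Changes ran from -2.18 to -0.39 for red cell precursor markers and from -1.87 to -1.31 for dividing cell markers. A link between these falls was not tested.

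**Figure D4:**
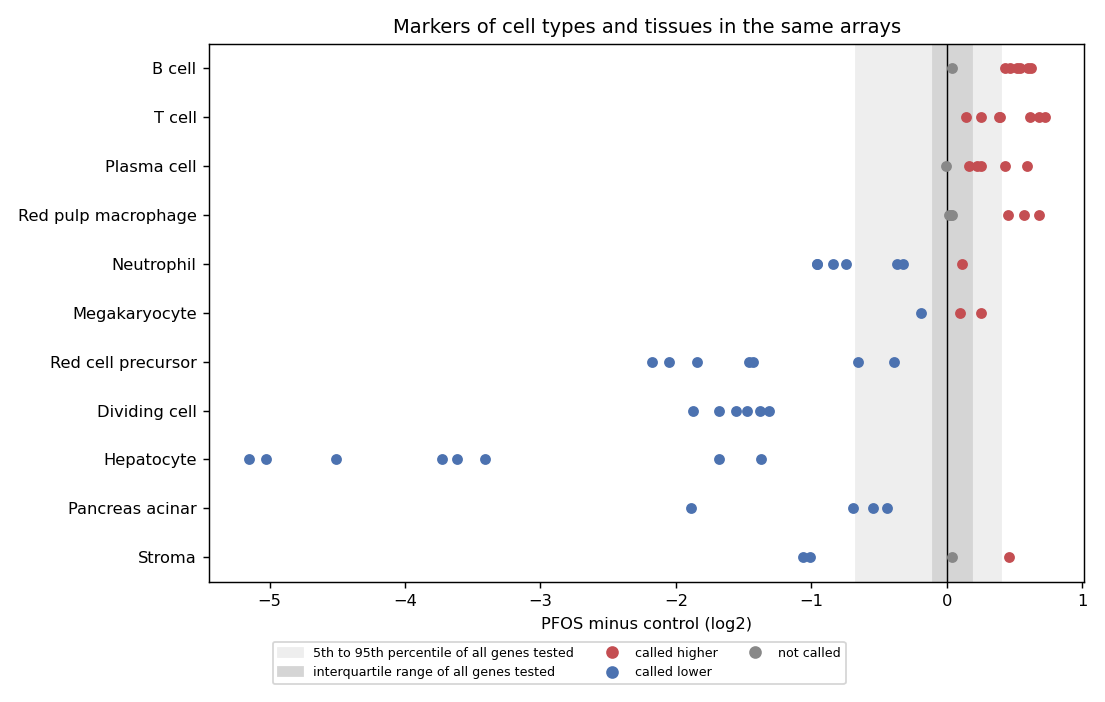
Change (PFOS minus control, log2) of markers of cell types and tissues, 1 point per tested gene, red where called higher, blue where called lower and grey where not called, with the shading of all genes tested as before. Markers of B and T cells lie at up to 0.62 and 0.72, and those of dividing cells, red cell precursors and hepatocytes lie to the left, with medians of -1.52 and -1.46 for the first 2 and with 5 of the 8 hepatocyte markers under the floor in PFOS.

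Position on the chromosome was compared next. Casd1 lies on chromosome 6 by the gene table of GRCm38.p6, and so does Cmas, which changed the opposite way. Of the 5 genes of any kind on either side, Col1a2 and Sgce were tested. Col1a2, a collagen chain like the stroma markers Col1a1 and Col3a1, was lower at -0.47 ± 0.02 (limma adjusted p = 1.82e-06), and Sgce, a sarcoglycan, had -0.05 ± 0.02 (limma adjusted p = 0.085). Peg10, an imprinted gene beside Sgce, lay under the floor at a mean of 4.03. Among the 5 protein-coding genes on either side, a choice made after seeing the data, 7 were tested: Gng11 and Bet1 were higher by 0.12 each, Col1a2, Ppp1r9a (-0.23) and Pon1 were lower, and Gngt1 (-0.03) and Sgce were not called. Pon1 lay at 6.75 in control and, under the floor, at 5.45 in PFOS, so that no size is given for its fall. No tested neighbour had a rise near that of Casd1. Casd1 was chosen for a rise that only Igha among all genes exceeded, so almost any set of genes would give this outcome. A role of position was not tested.

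The tested genes closest to Casd1 in pattern were found by the Euclidean distance between the log2 values of the 6 arrays, each gene centred on its mean. This is a description, since Casd1 was chosen for the pattern. Igha, the heavy chain of immunoglobulin A, was nearest at a distance of 0.14, with 10.56, 10.60 and 10.62 in control and 12.20, 12.22 and 12.20 in PFOS. Zbtb16, a zinc finger factor needed by natural killer T cells, followed at 0.35, then Gm3715 at 0.41, Tmem255a at 0.43 and Cirbp, a cold-inducible RNA-binding protein, at 0.48. None of the 5 is a gene of the sialic acid list, and the control means of Gm3715 (5.61) and Tmem255a (5.30) lay under the floor.

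All of these changes are relative to how the arrays were scaled. The bacterial labelling spikes, transcripts added to the RNA before labelling, lay at 6.64 to 6.65 in control and at 6.09 to 6.14 in PFOS over 24 probe sets. Scaling on them adds 0.53 to every change, and scaling on ribosomal protein genes takes off 0.14. Of all calls, 61.0% were higher in the deposited values, 94.3% with scaling on the spikes and 27.1% with scaling on ribosomal protein genes. Casd1 had 1.38 to 2.05 under the 5 scalings. Relative to the median of all genes, its change was 1.46 in the deposited values and under both of these scalings. The order of the members stayed the same in these 3, since the same constant is added to each gene.

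**Figure D5:**
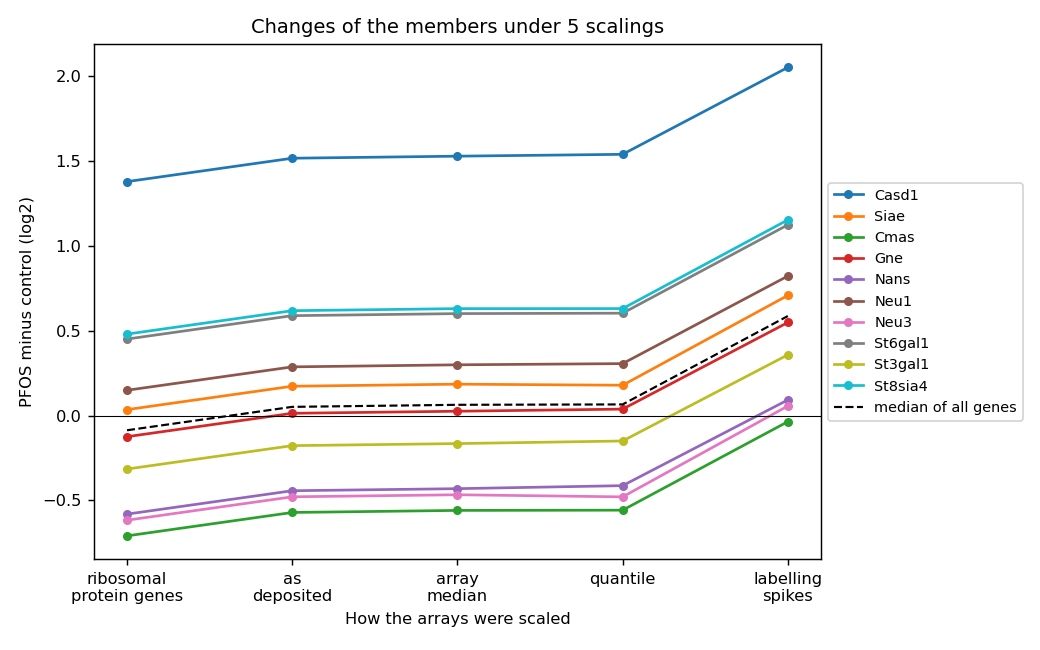
Change (PFOS minus control, log2) of the 10 members under 5 ways of scaling the arrays, with the median of all genes dashed. Casd1, St8sia4, St6gal1, Neu1 and Siae lie above 0 throughout, Cmas lies below 0 throughout, Gne lies below 0 with ribosomal protein genes only, and Nans, Neu3 and St3gal1 cross from below to above 0 with the labelling spikes.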

How the data were processed

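The authors deposited log2 values made with RMA, as the submitters' processing notes name it, a method that removes background, brings arrays to a shared distribution and fits 1 value per probe set. The sources used here name neither its version nor a filter. Neither scanner output nor detection calls entered the work. Of 45101 probe sets, 64 were array controls, 34945 had 1 gene symbol, 932 several and 9160 none; 34741 matched the gene table of GRCm38.p6 by identifier and 0 symbols changed.

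For genes, probe sets with 1 symbol and a mean over the 6 arrays at or above the 40th percentile of non-control probe sets (5.62) were kept, and the one with the highest mean stood for its gene, which left 13101 genes. For the probe sets of the members, a fit without a filter ran over 45037 non-control probe sets. Both used limma 3.58.1 (lmFit, eBayes) in R 4.3.3, with two-sided p-values adjusted by Benjamini-Hochberg across the whole table. Genes and probe sets were called below 0.05, and the error given with a change is limma's SE. The procedure was tested on simulated data. The number of arrays, 3 per group, limits the precision. Named were the members, up to 4 further called genes per role with the smallest p, the neighbours of Casd1 and its 5 nearest patterns; genes named beyond these were singled out after their values were seen. Members and lists were chosen with earlier results of these data known. Alternatives covered the replicate number, the filter, scaling, variance prior, array weights, probe sets, threshold and leaving out each array.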

Additional observations from a re-analysis of the deposited data

How the results depend on the processing

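With scaling on ribosomal protein genes, 10 genes of the list other than Casd1 were higher and 17 lower (17 and 11 as deposited), and 3 member probe sets were higher (7 as deposited). Gne (-0.12, also for its probe set 1448810_at), St6galnac2 (-0.020), Cd33 (-0.032) and probe set 1430391_a_at of St8sia4 (-0.020) turned negative, and the calls of Siae, Nagk and St6galnac4 were lost. With the labelling spikes, 0 members were lower (4 as deposited), 29 genes of the list were higher and 4 lower, and 43819 of all probe sets were called (22289 as deposited), of those of the members 15 higher and 0 lower (7 and 6 as deposited). That scaling turned Nans (0.092), Neu3 (0.056), St3gal1 (0.36), Uap1 (0.29), St3gal4 (0.25) and St8sia5 (0.43) positive, and likewise probe sets 1416538_at (0.42) and 1459058_at (0.42) of Siae, 1417773_at (0.092) and 1417774_at (0.35) of Nans, 1418946_at (0.12) and 1441216_at (0.36) of St3gal1 and 1419339_at (0.056) of Neu3; both scalings add 1 constant to every change. At an adjusted p under 0.01, 4 member probe sets were higher (7 at 0.05), by construction. Leaving out 1 array at a time gave 4 higher and 4 lower members in each of the 6 fits, 13 to 17 higher and 10 to 12 lower genes of the list, and changes of Casd1 from 1.50 to 1.52. Without _s_at, _x_at and _a_at probe sets St8sia4, Slc33a1, St3gal5, St3gal4 and St8sia5 had no value. The replicate numbers were shared by both groups; deviations of same-numbered arrays correlated at 0.32, 0.14 and 0.10, not all above 0.1 before rounding, and control replicate 3 correlated best with PFOS replicate 2, at 0.13. The fit with the replicate block called 9050 genes (8730 without) and changed no member's call. Without detection calls, changes of values near 5.62 are limited by the background of the array.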

Other observations

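Several genes of the pathway had probe sets that did not move alike. Cmah had 6: the one that stood for the gene rose by 0.43, 2 others were called higher at 0.26 and 0.34, 1440458_at was called lower at -0.27, and 2 were not called at -0.05 and 0.07. Of the 5 probe sets of St3gal6, the 3 with the highest means were called lower at -0.67, -0.34 and -0.57, and the other 2 were not called at 0.22 and 0.06. The one at 0.06, 1443740_at, lay under the floor at a mean of 2.95. Of the 5 of Uap1, 1416743_at was called lower at -0.25 and 1416745_x_at, at 3.43 in control and 3.63 in PFOS, was called higher at 0.20. Both of these means of 1416745_x_at lay under the floor. All 3 probe sets of St3gal2 were called lower, at -0.98, -0.92 and -0.17, and all 3 of St8sia1 higher, at 0.55, 0.12 and 0.22. The St3gal2 probe set at -0.17, 1421890_at, lay under the floor at a mean of 4.47. The St8sia1 probe sets at 0.12 (1419695_at) and 0.22 (1419694_at) also lay under the floor, at means of 5.07 and 4.79. Only 1455695_at of St8sia1 thus lay above the floor.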
